A study of Drosophila melanogaster with 16 samples.

Results

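The regions described here are the places on the large autosomes of Drosophila melanogaster at which the chromatin proteins ROW, WOC, HP1c and HP1b were all found in fly heads although no peak of the promoter mark H3K4me3 touched them. They were chosen by measured values, namely the positions of the peaks in 5 lists. Peaks of the 4 factors that overlapped by 1 bp or more were merged into regions, the X chromosome, chromosome 4, the mitochondrial genome and the heterochromatin contigs were dropped, and a region was kept when it held a peak of every factor and overlapped no H3K4me3 peak. The rule kept 493 of 5880 autosomal factor regions, and these are called unmarked four-factor regions below. All arms of the large autosomes (2L, 2R, 3L and 3R) hold some of them.

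The data are chromatin immunoprecipitation and sequencing (ChIP-seq) profiles of fly heads, with 1 antibody for each of HP1b, HP1c, WOC, ROW and H3K4me3, and IgG as the control. Every library came from the same genotype, Actin-gal4/+ (W1118), a driver stock kept as the control with no target transgene named, and from flies raised at 25°C with 12 h of light and 12 h of darkness. The sources used here do not give the age or sex of the flies. There were 16 libraries, 2 each of IgG and HP1b and 3 of every other antibody. Those of an antibody had been combined into 1 peak list, so neither the spread between replicates nor the depth behind a peak is known. Heads hold neurons, glia, fat body, muscle and other cells, and a list does not tell whether factors that share a region shared it in the same cells. Absence of the mark means that no H3K4me3 peak was called there.

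ROW and WOC are zinc-finger proteins that bind chromatin and form a complex with HP1c. HP1c and HP1b belong to the heterochromatin protein 1 family, whose founding member HP1a coats silent pericentromeric chromatin, whereas HP1c lies mostly in euchromatin and HP1b in both. Trimethylation of histone H3 at lysine 4 is laid down around the start of transcribed genes and serves as the usual sign of an active promoter.

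Of the 5880 autosomal factor regions, 830 held all 4 factors (14.1%) and 3689 overlapped no H3K4me3 peak (62.7%). These shares are set by the rule and nothing is read from them. Among regions with all 4 factors 493 of 830 lay outside the mark (59.4%), against 571 of 1034 regions with 3 factors (55.2%), 912 of 1892 with 2 factors (48.2%) and 1713 of 2124 with 1 factor (80.6%). The other 337 four-factor regions overlapped the mark and are called marked four-factor regions. A further class used for comparison holds 299 regions with ROW, WOC and HP1c, no HP1b and no mark. The unmarked four-factor regions took up 500 HP1b peaks, 496 HP1c peaks, 503 WOC peaks and 505 ROW peaks. This was 29.1% of the HP1b peaks on the 4 arms, 16.1% of the HP1c peaks, 14.0% of the WOC peaks and 12.6% of the ROW peaks, an order that follows the lengths of the lists (1720, 3082, 3600 and 4022 peaks).

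In nearly all unmarked four-factor regions the peaks of the 4 proteins shared a common core. Of the 493 regions, 470 held exactly 1 peak of each factor (95.3%, 95% Wilson interval 93.1 to 96.9), 15 held 5 peaks, 7 held 6 and 1 held 7. A base common to all 4 factors existed in 485 regions (98.4%, 96.8 to 99.2). The stretch common to all 4 had a median of 313 bp (95% interval 299 to 330) and made up 52.7% of the region (51.1 to 54.5). Among the 337 marked four-factor regions 316 held 1 peak of each factor (93.8%), and the common stretch was 332 bp (313 to 349), or 43.8% of the region (40.9 to 46.1). Since overlap was part of the rule, these values describe the regions and were not tested. Intervals of shares and medians cover counting over regions only, not variation between flies or libraries.

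The centres of the 4 peaks lay close together. In the 470 regions with 1 peak of each factor the distance between the outermost centres had a median of 103 bp (93 to 112), and it was at most 200 bp in 397 of them (84.5%). In the marked four-factor regions the median was 85 bp (76 to 99), with 259 of 316 within 200 bp (82.0%). Centres of ROW and WOC were the closest pair in the unmarked regions, with a median distance of 37.75 bp (33.5 to 42.5), and ROW and HP1b the farthest, with 58 bp (48.5 to 62.5). Medians of the other pairs were 44.25 bp for WOC and HP1c, 47.75 bp for HP1c and HP1b, 51 bp for WOC and HP1b and 51.5 bp for ROW and HP1c. The intervals of neighbouring pairs in this order overlapped, while those of the first and last pair did not.

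The tightest and loosest examples show the range. Coordinates are those of build dm3. At chr2L:22364835-22365120 an HP1b peak of 260 bp, an HP1c peak of 271 bp, a WOC peak of 280 bp and a ROW peak of 286 bp had centres within 1.5 bp. The next tightest were chr2R:564499-564838, with centres within 5 bp, and chr3L:17539195-17539676, with centres within 11.5 bp. At the other end, 8 regions had no base common to all factors, 4 of them on 3L and 4 on 3R. The widest spread, 841.5 bp, was at chr3R:4494134-4495343, where a ROW peak of 711 bp, an HP1b peak of 384 bp, a WOC peak of 353 bp and an HP1c peak of 261 bp were chained side by side. The region with most peaks was chr2L:21663578-21665136, with 2 peaks each of ROW (676 and 407 bp), WOC (303 and 566 bp) and HP1b (776 and 341 bp) and 1 HP1c peak of 699 bp.

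Region widths ran between 286 and 2782 bp, with a median of 653 bp (614 to 687) and quartiles of 526 and 856 bp, and the 493 regions covered 362 kb in all. Marked four-factor regions were wider, with a median of 801 bp (780 to 850). Unmarked ROW-WOC-HP1c regions were narrower, with 525 bp (501 to 547), and all 5880 factor regions together had a median of 444 bp (436 to 452). A wide region meets another peak more easily, and H3K4me3 overlap defined the classes, so these widths are not independent of the rule. The widest unmarked four-factor region was chr2R:1146014-1148795, a single ROW peak of 2782 bp over WOC peaks of 384 and 1827 bp, an HP1c peak of 873 bp and an HP1b peak of 616 bp. On 3R the widest was chr3R:7076678-7079129, set by an HP1c peak of 2452 bp, with peaks of 1820 bp for ROW, 1784 bp for HP1b and 1420 bp for WOC. On 2L it was chr2L:21391517-21393359, where the 4 factors were broad alike: ROW 1716 bp, WOC 1813 bp, HP1c 1688 bp and HP1b 1729 bp, with 1647 bp common to all. The widest on 3L, chr3L:23151015-23152580, was an HP1c peak of 1566 bp that held peaks of 1270 bp for WOC, 1084 bp for HP1b and 582 bp for ROW.

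The order of the peak widths differed between the classes. The factor lists carry no height or score, so width is the only size that can be read for a peak. A wide peak reaches an H3K4me3 peak more easily, so widths compared between the marked and unmarked classes are not independent of the rule. In the 470 unmarked four-factor regions with 1 peak of each factor HP1c peaks had a median width of 504 bp (484 to 529), WOC peaks 481 bp (459 to 509), HP1b peaks 449.5 bp (431 to 463) and ROW peaks 433.5 bp (413 to 461). In the 316 marked four-factor regions HP1c peaks had 474 bp (458 to 496), WOC peaks 679.5 bp (655 to 706), HP1b peaks 367.5 bp (355 to 387) and ROW peaks 753.5 bp (730 to 784). HP1c and HP1b peaks were thus wider in the unmarked regions, HP1c with overlapping intervals, and ROW and WOC peaks were narrower there. HP1c was the widest peak in 186 unmarked regions (39.6%), WOC in 100 (21.3%), ROW in 91 (19.4%) and HP1b in 90 (19.1%), with ties in 3. In the marked regions ROW was the widest peak in 232 of 316 (73.4%), and HP1b was the narrowest in 221 (69.9%), against 154 of 470 unmarked regions (32.8%).

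**Figure D1:**
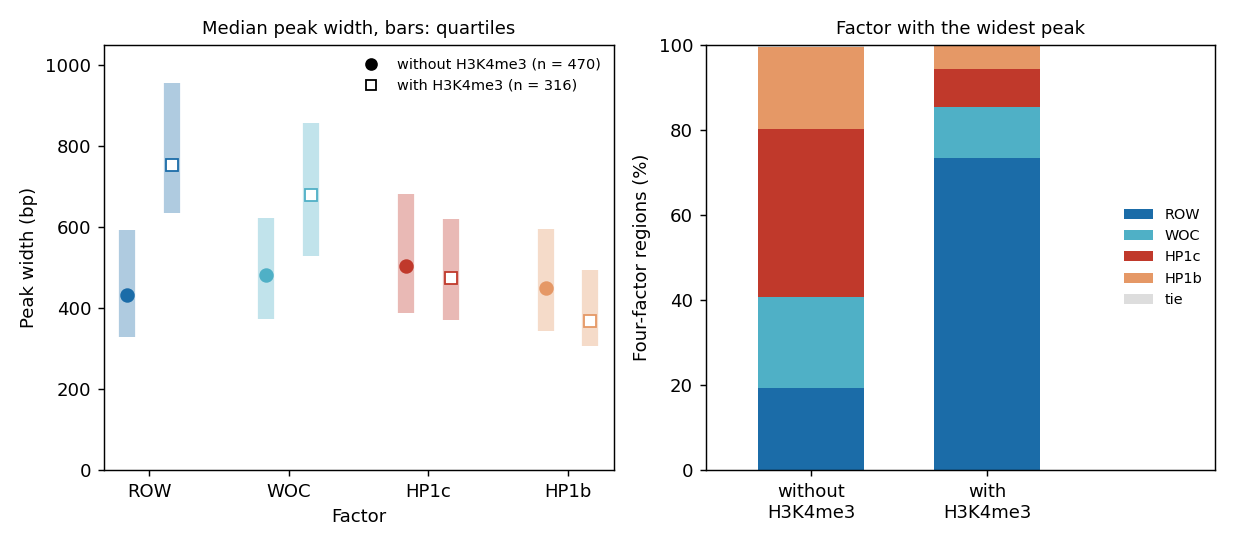
Left, peak width in bp for each factor in four-factor regions without H3K4me3 (filled circles, n = 470) and with H3K4me3 (open squares, n = 316), with medians as symbols and the span between the quartiles as bars. Right, share of regions in percent in which each factor had the widest peak: HP1c led with 39.6% of regions without the mark, and ROW with 73.4% of regions with it.

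Within the same region HP1c exceeded ROW in width in 297 of 470 unmarked regions (63.2%, 58.7 to 67.4), with a median HP1c-to-ROW ratio of 1.12 (1.08 to 1.16). In the marked regions it did so in 49 of 316 (15.5%), with a ratio of 0.632. HP1b exceeded ROW in 246 unmarked regions (52.3%, 47.8 to 56.8), with a ratio of 1.02, and in 33 marked regions (10.4%), with a ratio of 0.513. On every arm the share with HP1c wider than ROW was above 60% without the mark and below 25% with it: 61.8% against 15.6% on 2L, 61.9% against 4.48% on 2R, 64.3% against 22.1% on 3L and 64.6% against 17.9% on 3R. The contrast was seen in each band of region width, and was smallest among regions under 600 bp, where the share was 63.9% of 208 unmarked and 30.2% of 43 marked regions. Among regions of at least 600 and under 800 bp the share was 59.6% of 136 unmarked and 14.4% of 125 marked regions, and among those of at least 800 and under 1200 bp it was 63.2% of 106 unmarked and 14.8% of 108 marked regions. At 1200 bp or more HP1c was wider in 16 of 20 unmarked and 2 of 40 marked regions. A wide ROW peak can itself bring a region into the marked class. Splitting by arm or by region width does not remove this, and the contrast was not tested. Across regions, Spearman's rho of the widths of ROW and WOC was 0.633 in the unmarked and 0.877 in the marked class, and that of ROW and HP1b was 0.427 and 0.251 in the same order. These correlations describe regions whose peaks came from the same flies and genome positions.

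**Figure D2:**
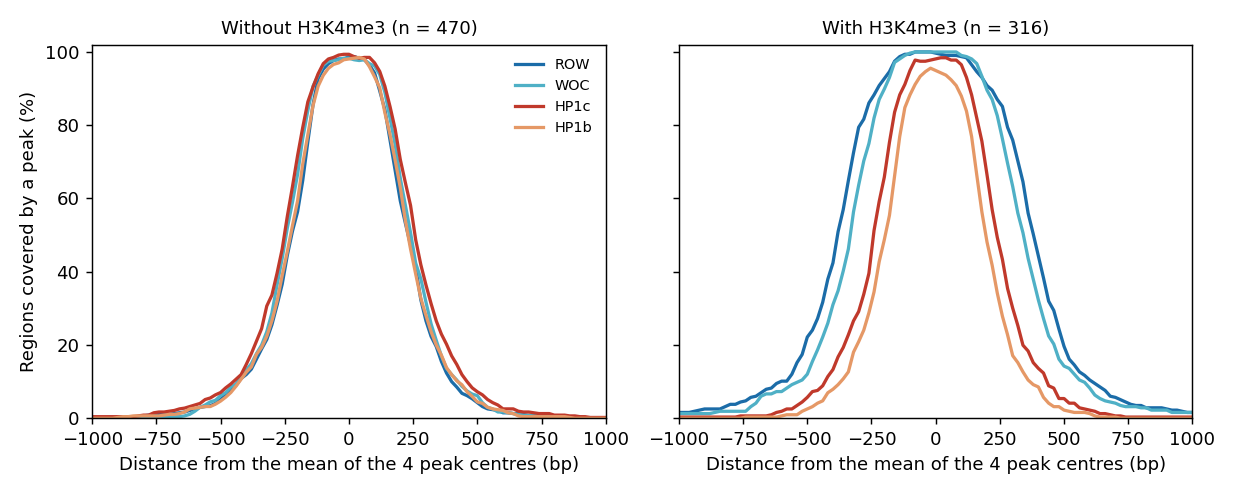
Share of four-factor regions in percent whose bases were covered by a peak of each factor, by distance in bp from the mean of the 4 peak centres, for regions without H3K4me3 (left, n = 470) and with it (right, n = 316). Without the mark the 4 curves lie close together, and with it the ROW and WOC curves run outside those of HP1c and HP1b.

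The coverage profile gives the same contrast base by base. At 300 bp to the left and right of the mean centre, ROW peaks covered 25.5% and 26.6% of the unmarked regions, HP1c peaks 33.6% and 36.4%, and HP1b peaks 26.6% and 28.1%. In the marked regions ROW covered 79.4% and 75.9% at the same distances, WOC 63.6% and 63.3%, HP1c 29.1% and 30.1% and HP1b 20.9% and 17.1%. In the marked class ROW and WOC thus covered the flanks more often than the HP1 proteins, and in the unmarked class ROW did not. For WOC no coverage of the unmarked class is given here. Its median width there, 481 bp, lay between those of HP1b (449.5 bp) and HP1c (504 bp). Like the widths, the profile is not independent of the rule.

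Most unmarked four-factor regions were not close neighbours of an H3K4me3 peak. The edge-to-edge gap to the nearest one had a median of 8264 bp (6783 to 10286), with quartiles of 2117 and 24314 bp. It was under 0.5 kb for 59 regions, 0.5 to 1 kb for 25, 1 to 5 kb for 105, 5 to 20 kb for 154 and 20 kb or more for 150. Thus 84 regions lay within 1 kb of the mark (17.0%, 14.0 to 20.6) and 433 within 50 kb (87.8%). Unmarked ROW-WOC-HP1c regions lay nearer, with a median gap of 4989 bp (3804 to 7971) and 73 of 299 within 1 kb (24.4%). Regions with HP1c as the only factor and no mark lay farther away, with 12159.5 bp (11024 to 13970) and 63 of 754 within 1 kb (8.36%). The gap is part of what the rule measured, and no test was made.

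At the limit of the rule, the nearest regions kept had gaps of 0, 3, 5, 5 and 8 bp. They were chr3L:9498390-9498910, chr3R:13624069-13624803, chr2R:7258616-7259498, chr2R:7778449-7779648 and chr3L:20121607-20122200. The nearest regions left out overlapped an H3K4me3 peak by 4, 4, 5, 12 and 23 bp, at chr3R:1290451-1291000, chr3R:22624027-22624825, chr2L:21520605-21521692, chr2L:21450317-21451157 and chr3L:15558392-15559177. The region chr2R:7258616-7259498, 5 bp from the mark, held a ROW peak of 877 bp, a WOC peak of 866 bp, an HP1c peak of 696 bp and an HP1b peak of 482 bp. The region chr3R:22624027-22624825, with an overlap of 4 bp, held a ROW peak of 799 bp, a WOC peak of 677 bp, an HP1c peak of 467 bp and an HP1b peak of 309 bp. The farthest region from the mark, chr3R:2683896-2684487, lay 198107 bp away and had a ROW peak of 552 bp, a WOC peak of 573 bp, an HP1c peak of 560 bp and an HP1b peak of 487 bp. Next came chr3L:23514641-23515380 at 180575 bp, with its widest peak for HP1c (740 bp) and its narrowest for ROW (510 bp).

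H3K4me3 peaks within 1 kb of an unmarked four-factor region had lower values than the list as a whole, and those nearest to the other unmarked regions did not. The authors' deposited fold enrichment at the summit had a median of 2.80 (2.36 to 3.34) over the 84 H3K4me3 peaks nearest to unmarked regions within 1 kb, and the authors' −log10 q-value a median of 17.7 (13.8 to 31.9). Without the stretch of 2L described below, the authors' medians over the remaining 67 peaks were 3.34 (2.82 to 3.69) and 27.0 (17.7 to 34.7). For the 322 H3K4me3 peaks nearest to the other unmarked regions the authors' medians were 3.89 and 39.4. For the 333 peaks at marked four-factor regions they were 4.31 and 48.9. Over all 4488 H3K4me3 peaks on the 4 arms the authors' medians were 3.85 and 38.8. These values describe the list and were not tested.

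Within the unmarked class, peak widths differed with the gap. The gap was measured from the edge of the merged region, so a wide peak shortens it. Width and gap are thus not independent, and the differences were not tested. From the nearest to the farthest of the 5 bands of gap, ROW peaks had median widths of 636.5, 475.5, 461, 392.5 and 404 bp, over 58, 24, 99, 146 and 143 regions with 1 peak of each factor. HP1b peaks had 470.5, 400, 432, 451.5 and 459 bp. HP1c was wider than ROW in 43.1%, 54.2%, 56.6%, 69.2% and 71.3% of these regions, and ROW was the widest peak in 36.2%, 20.8%, 25.3%, 16.4% and 11.2%. ROW peaks of regions within 0.5 kb of the mark were thus between those of the marked class (753.5 bp) and those farther away in median width. The marked class was chosen by overlap, which a wide peak makes easier. Of the 59 regions within 0.5 kb, 13 came from 1 short stretch of 2L described below. Without it the median in the first band was 575 bp for ROW and 396 bp for HP1b, HP1c was wider than ROW in 28.9% of its 45 regions, and ROW was the widest peak in 46.7%. The band of 0.5 to 1 kb then held 20 regions, with a ROW median of 453 bp and HP1c wider than ROW in 65.0%.

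**Figure D3:**
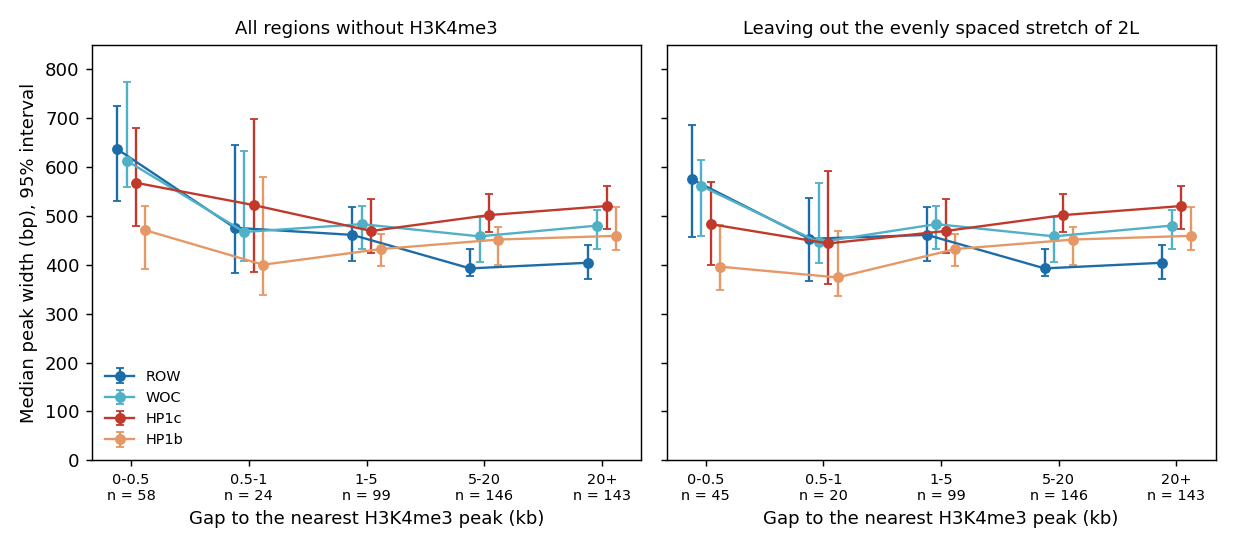
Median peak width in bp (points) with its 95% interval (bars) for each factor in four-factor regions without H3K4me3, by gap in kb to the nearest H3K4me3 peak, over all such regions (left) and leaving out the evenly spaced stretch of 2L (right). In the farthest band ROW has a median of 404 bp and HP1c of 520 bp.

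Position along the arms was not itself used by the rule and was tested. The regions of a list are not replicates of a condition, so each p describes these lists and not flies. Unmarked four-factor regions were concentrated towards the centromere. Within 2 Mb of the centromere-proximal end, taken from the outermost peak of the 5 lists, lay 133 of 493 unmarked four-factor regions (27.0%, 23.2 to 31.1), against 53 of 337 marked ones (15.7%). The odds ratio was 1.98 (95% interval 1.39 to 2.82; Fisher's exact test, two-sided, Benjamini-Hochberg adjusted p = 0.00131 over 10 tests). Against unmarked ROW-WOC-HP1c regions, of which 48 of 299 lay there (16.1%), it was 1.93 (1.34 to 2.79; Fisher's exact test, adjusted p = 0.00171). This call held at 2 Mb but not at 1 Mb, where 13.8% of the unmarked four-factor and 11.4% of the ROW-WOC-HP1c regions lay (odds ratio 1.25, adjusted p = 0.636 by Fisher's exact test), nor at 4 Mb (1.53, adjusted p = 0.0529). The call against marked regions was lost when only H3K4me3 peaks above the median −log10 q defined the mark (1.54, adjusted p = 0.162 by Fisher's exact test). Of the 3196 unmarked regions with 1 to 3 factors 14.0% were proximal, and of all 5880 factor regions 12.9%. From the first to the last peak of the 5 lists the arms spanned 23.0 Mb (2L), 21.1 Mb (2R), 24.5 Mb (3L) and 27.9 Mb (3R). H3K4me3 peaks had a lower share in the proximal 2 Mb than these classes of factor regions, with 305 of 4488 (6.80%). Overlap with these peaks separates the marked from the unmarked class, so the comparison with marked regions is not independent of the rule. The part of the lower share of H3K4me3 peaks in that comparison was not tested. The unmarked four-factor and ROW-WOC-HP1c classes both lack the mark but differ in HP1b. They also differ in median width (653 against 525 bp) and in median gap to the mark (8264 against 4989 bp). The part of these differences in their comparison was not tested either.

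**Figure D4:**
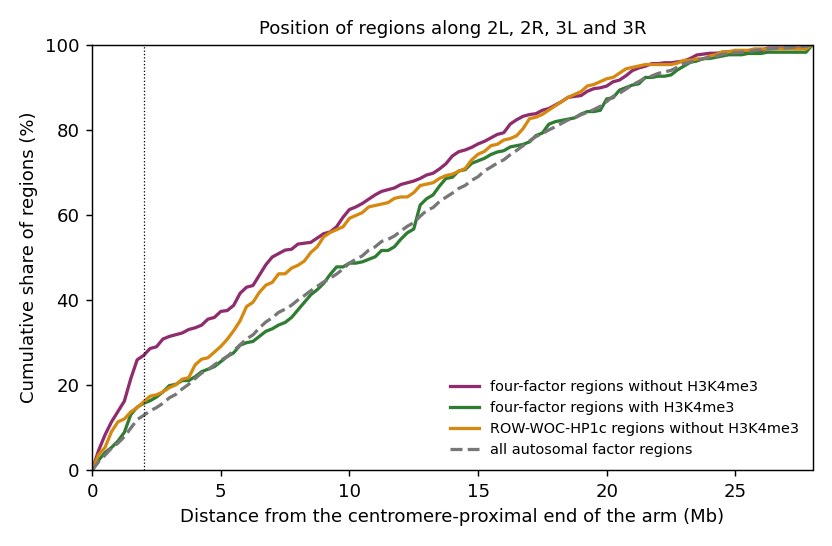
Cumulative share of regions in percent by distance in Mb from the centromere-proximal end of the arm, for four-factor regions without H3K4me3, four-factor regions with it, ROW-WOC-HP1c regions without it and all autosomal factor regions. The dotted line marks 2 Mb, within which lie 27.0% of the first class, 15.7% of the second, 16.1% of the third and 12.9% of all.

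The proximal share varied between arms. On 2L 53 of 130 unmarked four-factor regions were proximal (40.8%), against 20.4% of the marked and 17.2% of the ROW-WOC-HP1c class. On 3L 34 of 147 were proximal (23.1%), against 5.62% and 15.4% of those classes. On 2R the shares were 31.8% of 110 unmarked four-factor regions, 24.3% of the marked and 20.6% of the ROW-WOC-HP1c class. On 3R the order was turned round, with 11 of 106 unmarked four-factor regions (10.4%) against 12.7% and 12.3%. Per Mb, 26.5 unmarked four-factor regions lay in the proximal 2 Mb of 2L and 3.67 in the rest of the arm. The same densities were 17.5 and 3.92 on 2R, 17 and 5.01 on 3L, and 5.5 and 3.67 on 3R. All factor regions together were denser there too, with 112 and 57.2 on 2L and 99 and 55.7 on 2R. On 3L they had 93 and 62.9, and on 3R 75 and 55.5. Marked four-factor regions had 10.5 and 3.90 on 2L and 9 and 2.93 on 2R. On 3L they had 2.5 and 3.73, and on 3R 4.5 and 2.40. Of the 53 proximal unmarked regions on 2L, 17 lay in the stretch described below. Differences between arms in the proximal excess were not tested. Leaving out 2L, the odds ratio was 1.78 (Fisher's exact test, adjusted p = 0.0265) against marked regions and 1.51 (adjusted p = 0.0725) against ROW-WOC-HP1c regions, over 2 tests, so the second comparison lost its call without that arm. The other tests made after leaving out an arm kept theirs, with odds ratios of 1.67 to 2.32.

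By whole arm the unmarked four-factor regions were spread over all 4, with 26.4% on 2L, 22.3% on 2R, 29.8% on 3L and 21.5% on 3R. None of the 8 arm comparisons with the other classes passed Fisher's exact test (adjusted p between 0.281 and 0.932, with 0 of 8 at an unadjusted p under 0.05). Median widths were higher in the proximal 2 Mb for each factor, over regions that include the stretch of 2L described below. Over the 125 proximal unmarked regions with 1 peak of each factor ROW had 503 bp (438 to 552), against 419 bp (399 to 444) over the 345 others. HP1c had 548 bp (497 to 628) in the proximal and 490 bp (468 to 518) in the other unmarked regions, WOC 520 and 472 bp, and HP1b 465 and 443 bp, each with overlapping intervals. In the marked class ROW had 1011 bp (835 to 1230) in 43 proximal regions, against 739 bp (706 to 766) in 273 others. WOC had 905 bp (782 to 1102) in the proximal and 666 bp (633 to 683) in the other marked regions. HP1c was wider than ROW in 67.2% of the proximal and 61.7% of the other unmarked regions. These widths were not tested.

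A stretch of 127 kb near the base of 2L stood out, at chr2L:21416085-21542862, and was singled out after the values had been seen. It held 24 four-factor regions, 17 of them unmarked and 7 marked, in a nearly regular row. Of the 23 distances between the starts of successive regions 20 were between 4500 and 5500 bp, with a median of 5021 bp, against 20 of 803 such distances elsewhere on the 4 arms (2.49%). The stretch was taken as the longest row of four-factor regions with starts at most 15 kb apart. Its distances were thus capped by that choice, those elsewhere were not, and the contrast was not tested. The 17 unmarked regions were broad, with a median width of 1072 bp (range 653 to 1197), and their factors were alike in width, with medians of 945 bp (ROW), 953 bp (HP1b), 1043 bp (HP1c) and 1053 bp (WOC). Each lay between 13 and 677 bp from an H3K4me3 peak, and the 7 marked regions overlapped one by 5 to 413 bp. The 36 H3K4me3 peaks of the stretch had low values in the authors' deposited list, with a median fold enrichment of 1.91 (range 1.40 to 2.36) and a median −log10 q-value of 8.50 (range 3.06 to 16.9). Only 4 further factor regions lay inside, each with 1 HP1 protein alone. As background, the tandemly repeated histone genes of Drosophila melanogaster lie near the base of this arm. No gene was assigned here, and the sources used here do not say how reads that match repeated sequence were treated.

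**Figure D5:**
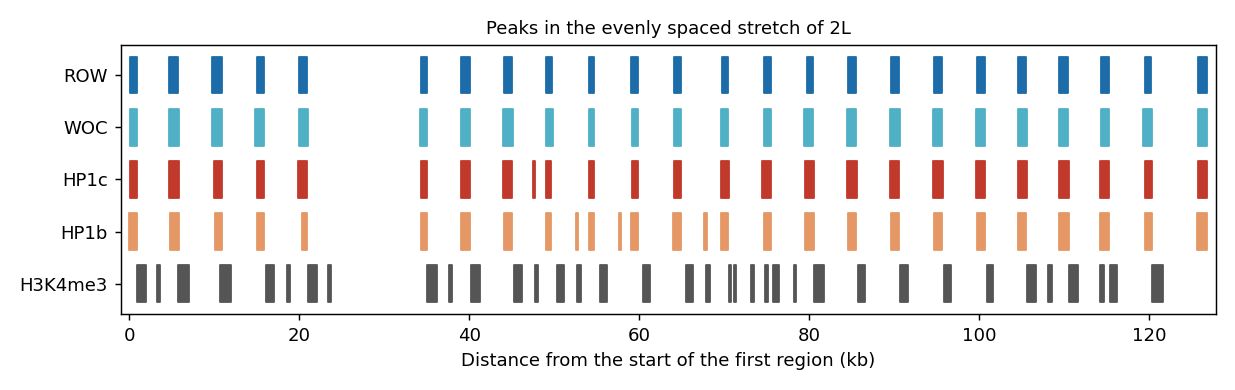
Peaks of ROW, WOC, HP1c, HP1b and H3K4me3 (bars, to scale) in the evenly spaced stretch of 2L, by distance in kb from the start of its first region. The 4 factors stack at 24 places, and H3K4me3 peaks lie beside or over them.

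The next longest rows of four-factor regions, with starts at most 15 kb apart, were chr2L:10366154-10431449 with 10 regions, none unmarked, and chr2R:1266896-1305221 with 8, of which 6 were unmarked. Leaving out the stretch on 2L changed the proximal comparison with marked regions little and lowered the odds ratio against ROW-WOC-HP1c regions. Of the remaining 476 unmarked four-factor regions 24.4% were proximal, against 13.9% of 330 marked ones (odds ratio 1.99, adjusted p = 0.00245 by Fisher's exact test). Against ROW-WOC-HP1c regions the odds ratio fell from 1.93 to 1.68, with the call kept (Fisher's exact test, adjusted p = 0.0331). On 2L 31.9% of the remaining 113 unmarked four-factor regions were proximal, against 40.8% with the stretch. HP1c was wider than ROW in 62.9% of 453 unmarked and 14.2% of 309 marked regions outside the stretch.

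The unmarked four-factor regions mostly stood singly in intervals free of the mark. All but 1 lay between a pair of H3K4me3 peaks, in 378 intervals with a median length of 38778 bp (33265 to 45367), of which 318 held a single such region. The largest number was 11, in the 462 kb interval chr3L:24068595-24530411, followed by 7 in the 374 kb interval chr3L:23334066-23708099 and 5 in the 363 kb interval chr2L:21758637-22121776, all in the proximal 2 Mb of their arms. The nearest other factor region, of any kind, lay a median of 2888 bp away (2475 to 3498). It carried the mark in 113 of 493 cases (22.9%), against 198 of 337 for marked four-factor regions (58.8%) and 77 of 299 for unmarked ROW-WOC-HP1c regions (25.8%). It held an HP1 protein without ROW or WOC in 30.8% of cases, against 12.2% for the marked and 27.8% for the ROW-WOC-HP1c class. It held ROW or WOC without an HP1 protein in 26.4%, against 47.5% and 34.8%. Neighbours of the unmarked four-factor class thus carried the mark at a share near that of the ROW-WOC-HP1c class, which lacks it too. These shares were not tested.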

How the data were processed

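Peaks of ROW, WOC, HP1c, HP1b and H3K4me3 were analysed as 1 deposited list per antibody over all its replicates. The sources used here do not give how replicates were combined. Per the submitters' processing notes, Bowtie2, SAMtools, MACS2 and deepTools and the build dm3 were used; the sources used here give no versions. The 4 factor lists deposited by the authors hold positions only. In the H3K4me3 list the authors give a fold enrichment at the summit (a ratio) and a −log10 q-value, with −log10 q of at least 3.02; these served to describe or rank peaks of that list. Depth per library is unknown, so a missing peak shows only that none was called. IgG has no list here.

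Starts were read as 0-based and are printed 1-based. Shares carry 95% Wilson intervals, medians order-statistic (binomial) intervals and odds ratios Woolf intervals. Fisher's exact tests, two-sided, were adjusted by Benjamini-Hochberg, with 0.05 as threshold. Adjustment was over 10 tests, or over the 2 proximal tests where an arm was left out. The merging, the sorting into classes and the gaps to the mark were tried on simulated peaks. The Fisher's exact tests were not part of that trial. Python 3.11.15, NumPy 2.4.6, SciPy 1.17.1 and matplotlib 3.10.9 were used.

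The regions, comparison classes and lists were chosen with earlier results of these data known. Named regions are the widest of each arm, the nearest to and farthest from H3K4me3, those with most peaks or the tightest centres, and the densest 100 kb windows. The comparisons of peak widths, bands of gap and width, single arms left out and the stretch of 2L were added after the values were seen. Alternatives changed the merging, the definitions of shared, mark-free and proximal, and the peaks used. No genome of build dm3 was at hand, so the planned motif shares and sequences were not produced and no gene is named.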

Additional observations from a re-analysis of the deposited data

How the results depend on the processing

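Over 201 recomputed values, 162 kept their direction and side of the threshold or moved by less than their interval. The number of unmarked four-factor regions was between 409 and 599 under 6 alternatives and 165 with factor peaks wider than their list's median, where the median region width was 840 bp, 97.0% held 1 peak of each factor, 22.4% lay within 1 kb of the mark and HP1b exceeded ROW in 46.25%. A base common to all 4 factors was present in 99.2% when merging required 0.5 of the shorter peak, and in 100% where it was required. The median gap was 11118.5 bp with a gap of 500 bp demanded, 12782 bp with 1 kb, and 16655 bp with H3K4me3 peaks above the median −log10 q. The share within 1 kb was then 5.76%, 0 and 5.18%, in that order; the first values follow from the gap demanded. With those H3K4me3 peaks ROW was widest in 26.2%, HP1c exceeded ROW in 56.8% and HP1b in 47.0%. By region width, HP1b exceeded ROW in 46.6% under 600 bp and 59.4% at 800 to under 1200 bp, and in the 20 regions of 1200 bp or more ROW was widest in 10% and HP1c exceeded it in 80%. Another unmarked four-factor region lay within 5 kb for 16.4% and within 20 kb for 34.7%.

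The proximal odds ratio against marked regions fell to 1.54 (Fisher's exact test, adjusted p = 0.162) with H3K4me3 peaks above the median −log10 q, and lay between 1.67 and 2.64 under the other alternatives, with the call kept. Against ROW-WOC-HP1c regions it was 1.25 at 1 Mb (Fisher's exact test, adjusted p = 0.636), 1.53 at 4 Mb (0.0529) and 1.51 without 2L (0.0725), and the call was lost in each of these. Calls with an arm left out were adjusted over 2 tests and the others over 10, so they are not held to the same correction. The whole-arm odds ratios near 1 changed direction. Against marked regions they were 0.990 for 3R (common base required), 0.996 and 0.988 for 2R (gap of 500 bp and 1 kb), 0.962 for 3L (higher −log10 q), and 1.39 for 2L, 0.777 for 3L and 0.677 for 3R (wide factor peaks). Against ROW-WOC-HP1c regions they were 0.965 and 0.931 for 2R (500 bp and 1 kb), 1.02 for 3L with higher −log10 q and 1.02 without the stretch of 2L. With wide factor peaks 2L (2.73, adjusted p = 0.00488) and 3R (0.327, 0.00453) passed Fisher's exact test against ROW-WOC-HP1c regions. For changes not set by an alternative's own construction the cause was not tested. No paired analysis was possible because the replicates of an antibody stand in 1 common list, and no replicate could be left out for the same reason. The motif alternatives were not run.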

Other observations

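The 100 kb window with most unmarked four-factor regions on 2L held 15, between chr2L:21430899 and 21526587 in the evenly spaced stretch, among 30 H3K4me3 peaks. On 2R the densest window held 7, between positions 498042 and 564838, among 2 H3K4me3 peaks. On 3L it held 7, between 14743146 and 14825585, among 8 H3K4me3 peaks, 9.80 Mb from the proximal end. On 3R it held 4, between 2645088 and 2722367, with 0 H3K4me3 peaks, and 3 of these 4 are among the 5 regions farthest from the mark. Another region of the same class lay within 10 kb of 124 of 493 unmarked four-factor regions (25.2%), of 86 of 337 marked ones (25.5%) and of 34 of 299 ROW-WOC-HP1c regions (11.4%). The classes differ in size and no direction is read from these shares.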
